A study of Mus musculus with 16 samples.

Results

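The level of 38 genes of the cell division cycle and of DNA replication was described in astrocytes sorted from the spinal cord and the thalamus of 4 mice at postnatal day 15. The genes were taken as a fixed list of symbols, chosen with earlier results of these data known, and all 38 were found among the 39171 features of the expression table. They comprise 3 D cyclins, 3 kinases of the G1 phase, 2 E cyclins, 8 genes of origin licensing and the replicative helicase, 3 genes of the replication clamp and nucleotide supply, 9 mitotic cyclins and kinases, 2 genes of the anaphase promoting complex pathway and 8 genes of chromosome and spindle proteins. All mice were C57BL/6 and carried 1 copy of an mCherry fluorescent reporter of IL-33, an alarmin cytokine, together with a GFP reporter of Aldh1l1, an astrocyte gene. Cells were sorted as reporter-positive or reporter-negative, which gave 16 libraries in 4 groups of 4: spinal cord positive, spinal cord negative, thalamus positive and thalamus negative. Each mouse gave 1 library to each group, and the negative groups carry the same reporters as the positive ones. The sources used here do not say how GFP entered the sort.

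Cells enter the division cycle when D cyclins activate their kinases, which release E2F transcription factors from the pocket proteins and thereby turn on the genes of DNA synthesis. Genes needed later, for mitosis, are held down in resting cells by the DREAM complex, which binds the CHR promoter element. Astrocytes of the brain and spinal cord divide mainly in the first postnatal weeks and then largely stop, while oligodendrocyte precursors, which lie in the same tissue, go on dividing.

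Levels are given in FPKM, fragments scaled for transcript length and library size, as the authors deposited them. A feature was tested when it reached 1 FPKM in at least 4 libraries, which left 16340 features and 30 of the 38 genes. Ccnb1, Ccnb2 and Cenpe reached that level in 4 libraries only through the thalamus negative group, where they are high, so calls of these 3 that involve this group are not independent of the filter. Bub1 passed through 3 thalamus positive libraries and 1 thalamus negative library, and Mcm6 through 2 thalamus negative and 3 spinal cord negative libraries. Their differences that involve these groups are not independent of the filter either. Cenpf and Kif11 reached 1 FPKM in 1 positive library, Aurkb in 2 and Mki67 and Tpx2 in 3, all from the thalamus. They passed only together with negative libraries, so their calls as lower in positive libraries are not fully independent of the filter. Differences are log2 fold changes of FPKM + 1 from limma, fitted over all 16 libraries, and a difference was called at a Benjamini-Hochberg adjusted p under 0.05 over all features tested. The added 1 makes the fold change of a gene at a low level smaller than the ratio of its FPKM values.

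Libraries summed to between 984986 and 2344483 FPKM, mitochondrial transcripts made up 43.7% to 73.9% of it, and 13260 to 14731 features reached 1 FPKM. The mitochondrial share was 43.7% to 49.2% in spinal cord positive, 46.7% to 71.8% in spinal cord negative, 51.3% to 56.7% in thalamus positive and 56.7% to 73.9% in thalamus negative libraries, and in each region it was lower in the positive library of all 4 mice. The spinal cord and thalamus negative libraries of mouse 1 stood apart, with mitochondrial shares of 71.8% and 73.9% and sums of 2233820 and 2344483 FPKM, against at most 1635367 FPKM elsewhere. Without the negative library of mouse 1 of the region, 6 genes were called lower in the spinal cord and 9 in the thalamus, in the comparisons of positive with negative libraries described below (7 and 9 with it). Whether the mitochondrial share plays a part in the results was not tested. Sequencing depth is unknown. All 10 astrocyte markers on the list (among them Aqp4, Slc1a3 and Gja1) reached 1 FPKM in every library, so the defining markers of the labelled cell type were present in all 4 groups. Their summed level was 7583 to 8183 FPKM in spinal cord positive, 5132 to 6620 in spinal cord negative, 4290 to 5064 in thalamus positive and 4010 to 4962 in thalamus negative libraries. The thalamus negative library of mouse 2 stood apart in the genes described here: it held the highest of all 16 values for 26 of the 38 genes, and 34 of the 38 reached 1 FPKM in it. Results that rest on this library are therefore given with and without it.

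The positive libraries held a low and even level of these genes, and the negative libraries a higher and more scattered one. The 38 genes summed to 59.9, 62.0, 69.2 and 66.5 FPKM in the spinal cord positive libraries of mice 1 to 4, against 181, 182, 129 and 149 FPKM in the spinal cord negative libraries. In the thalamus they summed to 78.7, 94.9, 86.0 and 87.0 FPKM in positive libraries, against 138, 406, 129 and 168 FPKM in negative libraries. Within each region, every positive library lay below every negative library. The G1 kinases, mostly Cdk4, made up a large part of the sums. They held 81.0 FPKM in spinal cord negative mouse 1 and 47.2 FPKM in thalamus negative mouse 3. Summed by role, the thalamus groups did not overlap for the G1 kinases, the licensing and helicase genes and the chromosome and spindle genes. They overlapped for the other roles. In the spinal cord only the E cyclins and the anaphase promoting complex genes overlapped. In the positive libraries 17 or 18 of the 38 genes reached 1 FPKM in the spinal cord and 21 to 25 in the thalamus, against 20 to 23 in spinal cord negative and 23 to 34 in thalamus negative libraries. The SD of log2(FPKM + 1) within a group had a median over the 30 tested genes of 0.167 in spinal cord positive, 0.556 in spinal cord negative, 0.210 in thalamus positive and 0.855 in thalamus negative libraries. The added 1 makes this SD smaller for genes at a low level, so part of the difference can follow from the lower level itself. The map of all 38 genes shows this by library, and the plot of summed levels sets it beside the markers of other cell types.

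**Figure D1:**
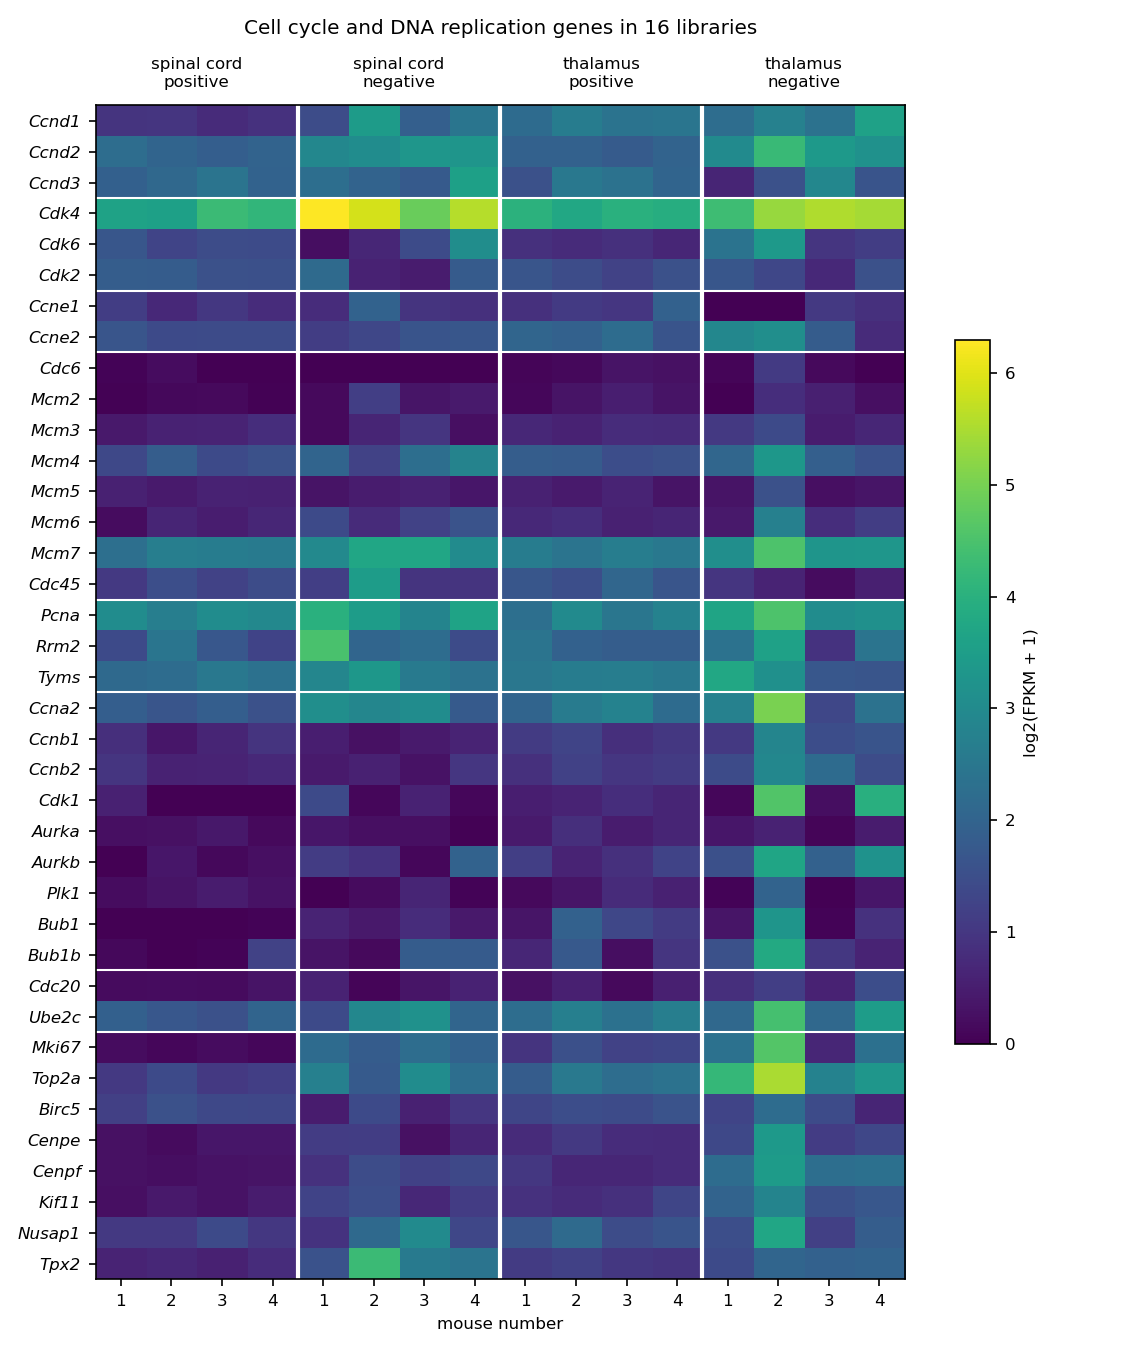
Level of each of the 38 genes as log2(FPKM + 1), as colour, with the 4 groups side by side, mice 1 to 4 within each, and white lines between roles. Cdk4 is bright in all libraries, the spinal cord positive block is the darkest for the mitotic and spindle genes, and the thalamus negative library of mouse 2 is the brightest column, highest of 16 for 26 genes.

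**Figure D2:**
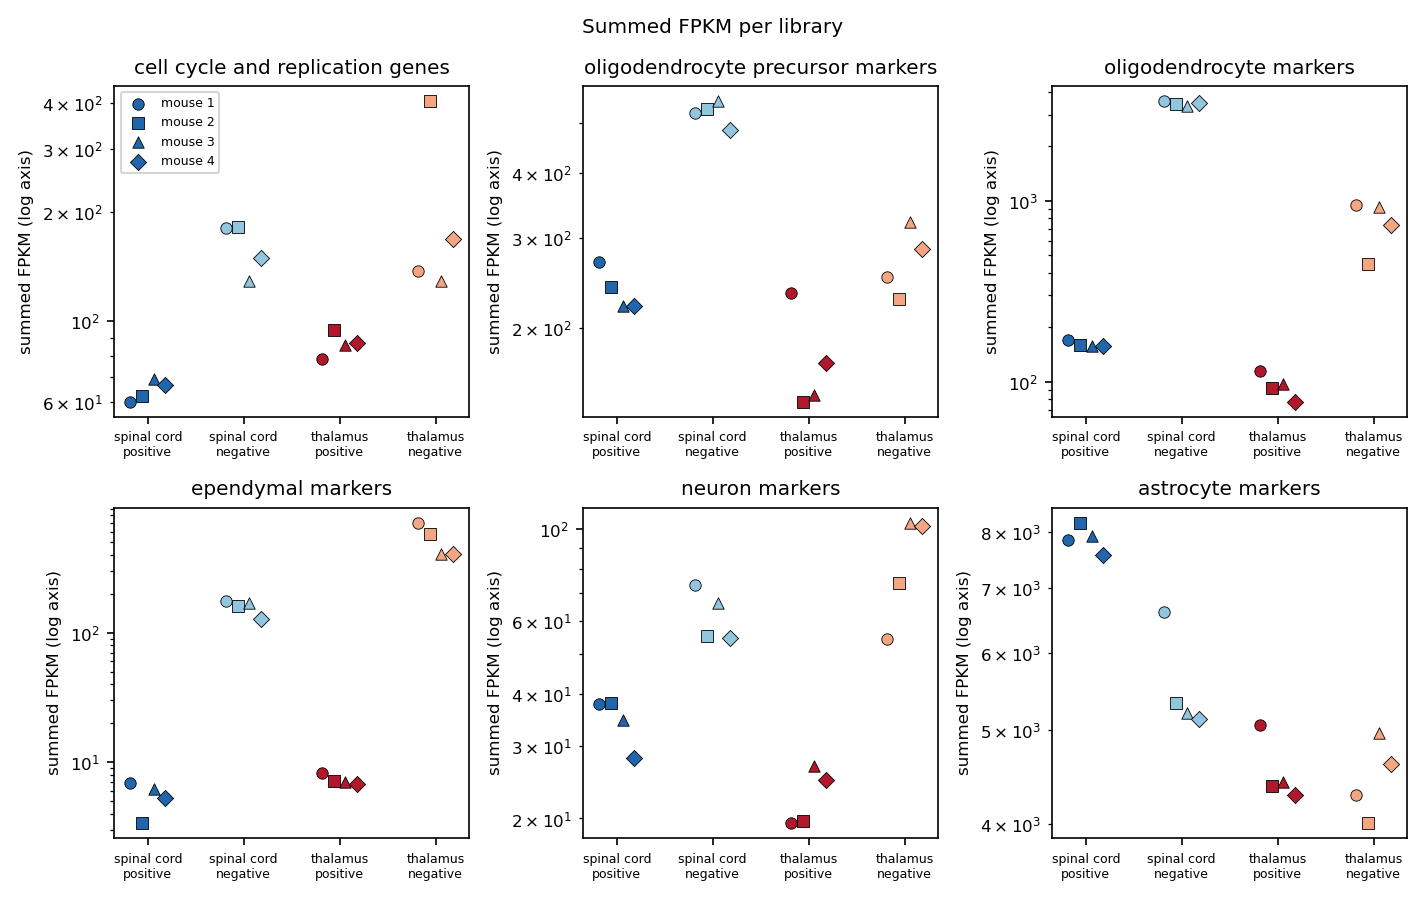
Summed FPKM per library (log axis) of the 38 cell cycle and replication genes and of markers of 5 cell types, by group, with 1 symbol per mouse. The 38 genes sum to 59.9 to 69.2 FPKM in spinal cord positive and 78.7 to 94.9 FPKM in thalamus positive libraries, below all negative libraries, and the oligodendrocyte, ependymal and neuron markers also lie below the negative libraries there. Cdk4 makes up a large part of the sums of the 38 genes.

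From negative to positive libraries, markers of oligodendrocytes, ependymal cells, oligodendrocyte precursors and neurons moved in the same direction as these genes. Their part in the results was not tested. Other lists did not all do so. In the thalamus the endothelial markers summed to 57.2 to 69.6 FPKM in positive and 37.1 to 65.9 FPKM in negative libraries. Microglia markers overlapped there, at 21.2 to 32.6 and 21.3 to 42.4 FPKM. The 10 oligodendrocyte markers summed to 157 to 169 FPKM in spinal cord positive and 3365 to 3562 FPKM in the negative spinal cord libraries, and to 77.3 to 114 FPKM in thalamus positive and 447 to 950 FPKM in thalamus negative libraries. The 10 ependymal markers summed to 3.39 to 6.93 FPKM in spinal cord positive and 127 to 174 FPKM in the negative spinal cord libraries, and to 6.85 to 8.30 FPKM in thalamus positive and 400 to 706 FPKM in thalamus negative libraries. Of 10 markers of oligodendrocyte precursors, the dividing cells of the lineage, 9 were in the table. These 9 summed to 221 to 269 FPKM in spinal cord positive and 484 to 552 FPKM in the negative spinal cord libraries, and to 144 to 234 FPKM in thalamus positive and 228 to 322 FPKM in thalamus negative libraries. In the positive libraries most of that sum came from Olig1 and Olig2, and 3 or 4 of the 9 reached 1 FPKM, against 8 or 9 in spinal cord negative and 6 to 8 in thalamus negative libraries. Pdgfra, the receptor that defines these precursors, was at 0.0999 to 0.340 FPKM in spinal cord positive and 1.44 to 9.04 FPKM in the negative spinal cord libraries, and at 0.0405 to 0.109 FPKM in thalamus positive and 0.280 to 1.14 FPKM in thalamus negative libraries. Matn4 of the precursor list and Tmem212 and Pifo of the ependymal list were at 0 in some positive libraries of each region. In such bulk libraries, fewer dividing cells and less RNA per cell cannot be told apart. In the thalamus negative library of mouse 2 the precursor sum, 228 FPKM, and the oligodendrocyte sum, 447 FPKM, were the lowest of its group, the endothelial sum, 65.9 FPKM, was the highest (37.1 to 42.1 FPKM in the others), and the ependymal sum, 576 FPKM, was the second highest.

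Promoters are shown because E2F sites are known from genes of the G1 to S phase transition and CHR elements from mitotic genes. Among called genes with a promoter in the RefSeq table, they are the 5 outside replication called in the most comparisons, with ties settled by the larger log2 fold change, and the 1 replication gene ranked first in the same way. Each sequence is the GRCm38.p6 window from 250 bases before to 50 bases after the transcription start in RefSeq, read on the gene's own strand from 5′ to 3′. Capitals mark 3 motifs searched on both strands: an E2F site (TTCCCGC or TTGGCGC), the CHR element (TTTGAA) and the CCAAT box (CCAAT). In Mcm7 the E2F match after the start overlaps a CCAAT box. Cenpf and Kif11 (spindle and kinetochore), Ccnb2 (mitotic cyclin) and Mki67 (proliferation marker) stand for mitosis, Mcm7 (helicase) for replication and Cdk4 (kinase) for entry into the cycle. The windows are Cenpf chr1:189688037-189688336, minus strand, Kif11 chr19:37376132-37376431, plus strand, Ccnb2 chr9:70421505-70421804, minus strand, Mki67 chr7:135716330-135716629, minus strand, Mcm7 chr5:138171834-138172133, minus strand and Cdk4 chr10:127063285-127063584, plus strand.
Cenpf: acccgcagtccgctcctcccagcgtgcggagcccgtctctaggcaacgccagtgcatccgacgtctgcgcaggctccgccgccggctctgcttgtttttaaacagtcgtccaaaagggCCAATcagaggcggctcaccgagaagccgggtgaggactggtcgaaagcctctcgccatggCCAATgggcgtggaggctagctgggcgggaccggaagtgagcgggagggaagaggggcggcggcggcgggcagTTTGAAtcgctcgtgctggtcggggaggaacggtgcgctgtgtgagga
Kif11: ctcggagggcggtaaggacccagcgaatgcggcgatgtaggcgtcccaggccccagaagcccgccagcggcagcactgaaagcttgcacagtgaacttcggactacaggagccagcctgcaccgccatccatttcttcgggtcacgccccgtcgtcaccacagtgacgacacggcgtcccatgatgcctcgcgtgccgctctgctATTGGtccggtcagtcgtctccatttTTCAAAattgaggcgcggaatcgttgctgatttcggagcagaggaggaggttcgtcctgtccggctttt
Ccnb2: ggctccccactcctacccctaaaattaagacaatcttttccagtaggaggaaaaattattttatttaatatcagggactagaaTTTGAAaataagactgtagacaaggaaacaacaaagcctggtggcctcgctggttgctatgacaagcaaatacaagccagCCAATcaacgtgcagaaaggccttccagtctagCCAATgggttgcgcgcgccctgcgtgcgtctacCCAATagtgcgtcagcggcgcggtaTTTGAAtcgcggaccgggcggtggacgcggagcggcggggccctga
Mki67: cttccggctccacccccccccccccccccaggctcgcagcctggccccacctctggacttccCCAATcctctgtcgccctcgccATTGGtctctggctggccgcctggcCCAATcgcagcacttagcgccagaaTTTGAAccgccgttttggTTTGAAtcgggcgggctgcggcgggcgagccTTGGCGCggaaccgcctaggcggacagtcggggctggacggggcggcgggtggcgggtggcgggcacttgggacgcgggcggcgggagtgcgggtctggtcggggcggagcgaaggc
Mcm7: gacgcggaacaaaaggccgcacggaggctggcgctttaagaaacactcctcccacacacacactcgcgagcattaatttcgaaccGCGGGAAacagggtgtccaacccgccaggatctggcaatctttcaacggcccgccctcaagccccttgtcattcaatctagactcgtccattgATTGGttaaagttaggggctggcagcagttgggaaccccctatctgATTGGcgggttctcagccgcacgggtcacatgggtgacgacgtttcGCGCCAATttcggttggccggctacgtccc
Cdk4: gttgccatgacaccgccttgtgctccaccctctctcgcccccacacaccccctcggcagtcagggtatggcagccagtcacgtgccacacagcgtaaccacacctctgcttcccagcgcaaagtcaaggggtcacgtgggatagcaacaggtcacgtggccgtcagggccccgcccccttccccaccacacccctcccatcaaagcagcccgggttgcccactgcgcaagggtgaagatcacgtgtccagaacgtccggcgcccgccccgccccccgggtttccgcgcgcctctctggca
Cenpf, Kif11 and Ccnb2 each held a CHR match within 20 bases of the start, at 2, -19 and 4, with CCAAT boxes upstream of it. Ccnb2 held a further CHR match at -167, upstream of its CCAAT boxes. Mki67 held CHR matches at -116 and -98 and an E2F match at -67. Mcm7 held E2F matches at -165 and 20 and no CHR match, and none of the 3 motifs was found in the Cdk4 window.

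Of the 38 genes, 31 were matched to a RefSeq promoter by symbol. An E2F match was found in 9 of the 31 (29%), against 6.93% of all 27025 promoters. A CHR match was found in 13 (41.9%), against 18.1% of all promoters, and a CCAAT box in 23 (74.2%), against 37.9%. These are counts of letters and not of bound sites. The E2F matches lay in Cdk2, Cdc6, Mcm3, Mcm5, Mcm6, Mcm7, Ccnb1, Cdk1 and Mki67, and 11 of the 13 CHR matches lay in mitotic, anaphase and spindle genes.

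In the spinal cord, positive libraries held less RNA of the D cyclins Ccnd1 and Ccnd2, of their kinase Cdk4 and of the chromosome and spindle genes Mki67, Cenpf, Kif11 and Tpx2. These 7 of the 30 tested genes were called lower (23.3%) and 0 were called higher, against 10.5% of all features called lower and 9.04% called higher (19.6% in either direction). Of the 7, Mki67, Cenpf, Kif11 and Tpx2 reached 1 FPKM in 0 spinal cord positive libraries and passed the filter only together with negative libraries. At an unadjusted p under 0.05 limma gave 9 lower and 0 higher. The median log2 fold change was -0.63 over the 30 genes and 0.09 over all features. The 4 values of each group did not overlap for 11 of the 30, all lower in positive libraries, where 14.1% of all features were lower and 13.8% higher without overlap. All 10 oligodendrocyte markers, all 10 ependymal markers, 5 of 8 tested precursor markers and 7 of 10 endothelial markers were called lower in the same comparison, and 1 endothelial marker higher. Of 7 tested microglia markers 1 was called lower, and of 9 tested neuron markers 0. Of 10 astrocyte markers 5 were called higher and 0 lower.

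D cyclins relay growth signals to the cell cycle. Ccnd2 (chr6:127125162-127152193 in GENCODE vM21 of GRCm38, minus strand) stood at 3.76, 3.11, 2.68 and 3.02 FPKM in spinal cord positive libraries of mice 1 to 4, against 6.51, 7.40, 8.86 and 8.72 FPKM in negative libraries. With no overlap between the groups, the log2 fold change was -1.10 ± 0.23 (SE, limma adjusted p = 0.00382). Ccnd1 (chr7:144929931-144939925, minus strand) stood at 0.935, 0.950, 0.715 and 0.854 FPKM in positive libraries, against 1.75, 9.86, 2.76 and 4.41 FPKM in negative libraries. Its positive values were all under 1 FPKM and close together, while the negative ones were spread with mouse 2 highest, and the log2 fold change was -1.42 ± 0.37 (SE, limma adjusted p = 0.0138). Both calls held without any 1 library. Leaving out whole mice ended the call of Ccnd1 without mouse 2, 3 or 4, with adjusted p up to 0.0827, and that of Ccnd2 without mouse 3, at 0.0644. The third D cyclin, Ccnd3, overlapped between the groups at 2.84 to 4.34 FPKM in positive and 2.42 to 10.9 FPKM in negative libraries.

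Cdk4 (chr10:127063534-127067920, plus strand), the kinase that D cyclins bind, had the highest level of the 38 genes in the positive libraries. It stood at 11.3, 10.8, 18.5 and 16.6 FPKM in the positive spinal cord libraries, against 77.3, 58.2, 28.1 and 47.3 FPKM in negative libraries. The highest positive value lay below the lowest negative one, and the log2 fold change of -1.76 ± 0.31 (SE, limma adjusted p = 0.000918) was called in all 19 alternative settings. Exons of Cdk4 overlap Tspan31 on the other strand, and the sources used here do not say whether counting used strand. Tspan31 itself had a log2 fold change of 0.41 in the spinal cord (limma adjusted p = 0.221). The related G1 kinases Cdk6 and Cdk2 overlapped between the groups. Cdk6 had 0.185, 0.603, 1.72 and 7.52 FPKM in negative libraries, a spread wider than in the positive ones, which held 1.45 to 2.2 FPKM.

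Among the chromosome and spindle genes, Tpx2 (chr2:152847964-152895321, plus strand), which helps assemble the mitotic spindle and activates Aurora A, was lower in positive libraries. It stood at 0.541, 0.632, 0.501 and 0.736 FPKM in the positive spinal cord libraries, against 2.01, 18.5, 4.93 and 4.35 FPKM in negative libraries. All positive values were under 1 FPKM and all negative values above 2 FPKM, and the log2 fold change of -2.04 ± 0.40 (SE, limma adjusted p = 0.00227) was called in all 18 alternative settings. Mki67 (chr7:135689784-135716361, minus strand), which coats mitotic chromosomes and is the usual marker of dividing cells, was at 0.152, 0.0728, 0.149 and 0.0759 FPKM in positive libraries, against 3.56, 2.55, 3.77 and 2.91 FPKM in negative libraries. The positive libraries were close to 0 and the negative ones lay within a narrow band, with a log2 fold change of -1.91 ± 0.55 (SE, limma adjusted p = 0.0239). With a pseudocount of 0.1 the log2 fold change of Mki67 was -3.96. The call of Mki67 was lost without the positive library of mouse 2, 3 or 4 or the negative library of mouse 1 or 3, with adjusted p of 0.0502 to 0.0558. Leaving out the whole of mouse 1 or mouse 4 also ended it, with adjusted p up to 0.127.

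Cenpf (chr1:189640606-189688086, minus strand), a kinetochore protein of the G2 and M phases, was at 0.223, 0.185, 0.237 and 0.253 FPKM in the positive spinal cord libraries, against 0.850, 1.76, 1.34 and 1.57 FPKM in negative libraries. All positive values were below all negative ones, and the log2 fold change was -0.94 ± 0.24 (SE, limma adjusted p = 0.0142), or -2.15 with a pseudocount of 0.1. Without mouse 3 or without mouse 4 the adjusted p of Cenpf was up to 0.0992, past the threshold. Kif11 (chr19:37376403-37421859, plus strand), the motor that pushes spindle poles apart, was at 0.193, 0.348, 0.231 and 0.393 FPKM in positive libraries, against 1.41, 1.84, 0.618 and 1.18 FPKM in negative libraries. Its groups did not overlap, and the log2 fold change was -0.78 ± 0.26 (SE, limma adjusted p = 0.0498), or -1.74 with a pseudocount of 0.1. The call of Kif11 was lost without any 1 library but the negative one of mouse 3, with adjusted p of 0.0786 to 0.118, and also without the filter on low values and without any 1 mouse.

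**Figure D3:**
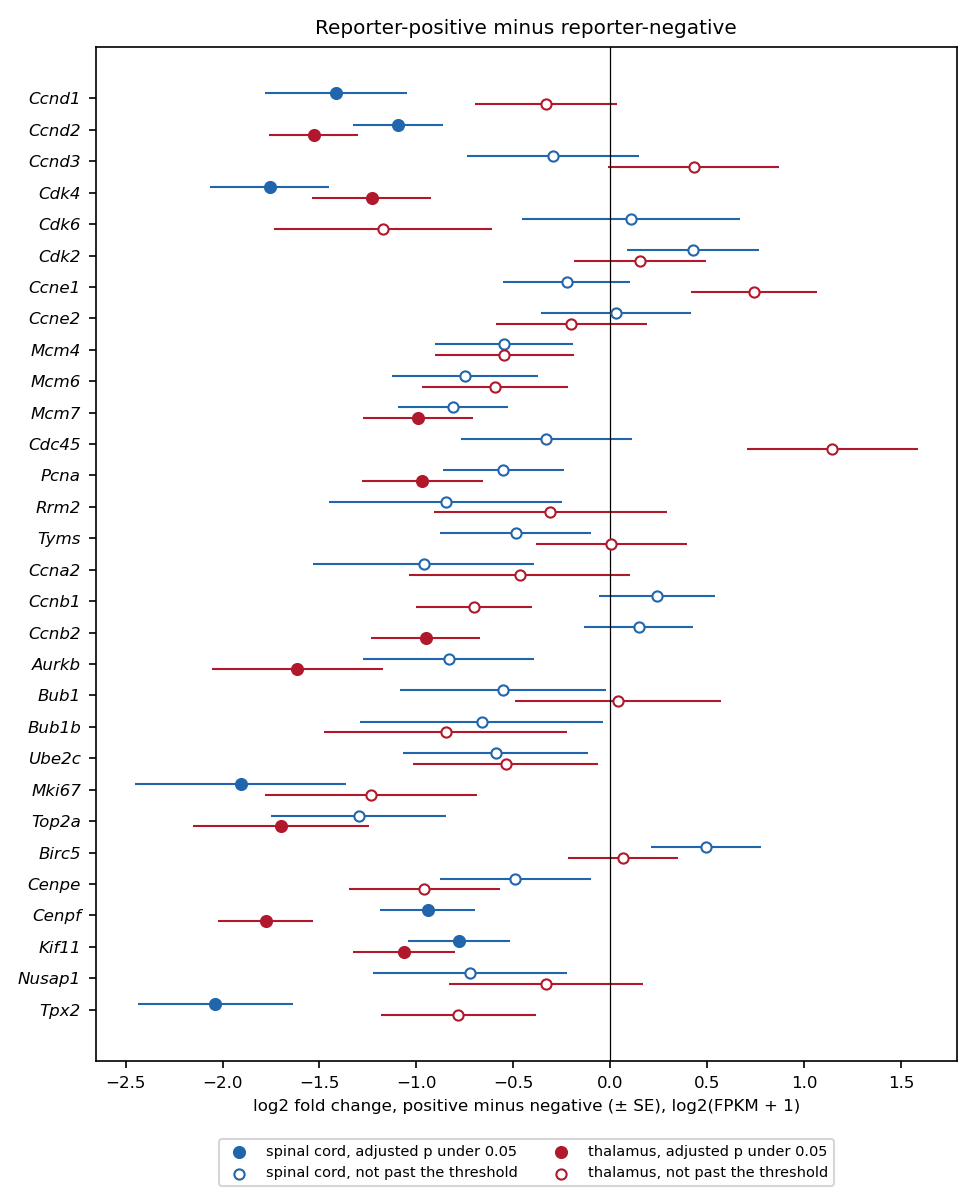
Log2 fold change of FPKM + 1 with its SE, positive minus negative, for the 30 tested genes in the spinal cord (blue) and the thalamus (red), with filled points for adjusted p under 0.05. Most points lie left of 0, 7 genes are called lower in the spinal cord and 9 in the thalamus, and the points called in both are Ccnd2, Cdk4, Cenpf and Kif11.

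Other spinal cord genes were separated between the groups but missed the threshold. Top2a, the topoisomerase that untangles chromosomes, stood at 1.07, 1.64, 1.06 and 1.26 FPKM in positive libraries, against 5.64, 2.45, 7.37 and 3.83 FPKM in negative libraries, with no overlap and a log2 fold change of -1.30 ± 0.45 (SE, limma adjusted p = 0.0574). Mcm7, a subunit of the replicative helicase, stood at 3.90, 5.48, 5.20 and 4.98 FPKM in positive libraries, against 6.75, 12.3, 12.2 and 7.22 FPKM in negative libraries. It did not overlap either, with -0.81 ± 0.28 (SE) on the log2 scale and a limma adjusted p of 0.0585, which became 0.0446 with the mouse as replicate block. Mcm6 and the checkpoint kinase gene Bub1 did not overlap, with log2 fold changes of -0.75 (limma adjusted p = 0.181) and -0.55 (limma adjusted p = 0.511). A fit of the 8 spinal cord libraries alone called these 4 and the 7 above, 11 genes in all, against 10.8% of features called lower in that fit. Of them, Mcm6 had passed the filter only through negative libraries. Pcna, the sliding clamp of DNA polymerases, overlapped at 7.31, 5.42, 7.33 and 6.62 FPKM in positive libraries, against 14.8, 10.1, 6.13 and 11.5 FPKM in negative libraries.

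In the thalamus, positive libraries likewise held less RNA of Ccnd2 and Cdk4, and also of the replication genes Mcm7 and Pcna, the mitotic genes Ccnb2 and Aurkb and the chromosome and spindle genes Top2a, Cenpf and Kif11. These 9 of the 30 tested genes were called lower (30%) and 0 higher, against 13.6% of all features called lower and 11.6% called higher (25.2% in either direction). At an unadjusted p under 0.05 limma gave 12 lower and 2 higher, Cdc45 and Ccne1. Of the 9, Ccnb2 had passed the filter only through the negative group, and leaving out Ccnb1, Ccnb2 and Cenpe gave 8 of 27 (29.6%). Those 8 still include Aurkb, Cenpf and Kif11, which passed only together with negative libraries. The median log2 fold change was -0.65 over the 30 genes and 0.06 over all features, and -0.25 over the 30 genes without the negative library of mouse 2. The groups did not overlap for 12 genes lower in positive libraries and for 1 higher, Cdc45, where 14.2% of all features were lower and 11.6% higher without overlap. All 10 oligodendrocyte markers, all 10 ependymal markers, 5 of 8 precursor markers and 3 of 9 neuron markers were called lower in the same comparison. Of the endothelial markers 1 was called lower and 1 higher, and 1 of 7 microglia markers was called lower. Of 10 astrocyte markers 4 were called higher and 1 lower. Without the thalamus negative library of mouse 2, 8 of the 9 calls remained, the exception being Pcna.

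Ccnd2 stood at 2.88, 2.90, 2.49 and 3.02 FPKM in thalamus positive libraries of mice 1 to 4, against 7.09, 18.2, 9.46 and 8.05 FPKM in negative libraries. All negative values lay above 7 FPKM and all positive values near 3 FPKM, and the log2 fold change of -1.53 ± 0.23 (SE, limma adjusted p = 0.000273) was called in all 19 alternative settings, at -1.26 without the negative library of mouse 2. Cdk4 stood at 15.5, 12.7, 14.9 and 14.2 FPKM in positive libraries, against 19.3, 39, 45.6 and 42.6 FPKM in negative libraries. The groups did not overlap, with mouse 1 the lowest of the negative ones, and the log2 fold change was -1.23 ± 0.31 (SE, limma adjusted p = 0.00942). The Cdk4 call was lost without mouse 2 or without mouse 4, with adjusted p up to 0.0897. Its neighbour Tspan31 had a log2 fold change of -0.37 (limma adjusted p = 0.249). Ccnd1 overlapped, at 3.56, 5.22, 4.23 and 4.42 FPKM in positive libraries, against 3.75, 5.74, 4.18 and 11.2 FPKM in negative libraries, and its log2 fold change was -0.33 ± 0.37 (SE, limma adjusted p = 0.537).

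Of the replication genes, Mcm7 (chr5:138164583-138172422, minus strand) stood at 5.25, 4.31, 5.39 and 4.71 FPKM in thalamus positive libraries, against 7.60, 22.0, 8.77 and 8.81 FPKM in negative libraries. The groups did not overlap, mouse 2 was far above the other negative libraries, and the log2 fold change was -0.99 ± 0.28 (SE, limma adjusted p = 0.0198), or -0.67 without that library. The call of Mcm7 was lost without the positive library of mouse 2 (adjusted p = 0.0513). It was also lost without mouse 2, 3 or 4 and in a fit of the 8 thalamus libraries alone (up to 0.0845). Pcna (chr2:132249162-132253314, minus strand) stood at 3.91, 7.01, 4.52 and 5.95 FPKM in positive libraries, against 11.8, 22.3, 7.38 and 7.90 FPKM in negative libraries. These groups did not overlap, by a small margin, with a log2 fold change of -0.97 ± 0.31 (SE, limma adjusted p = 0.0346). The call of Pcna was lost without the positive library of mouse 1, 3 or 4 or the negative library of mouse 1 or 2 (adjusted p = 0.0545 to 0.0944). Without the negative library of mouse 2 the log2 fold change of Pcna was -0.66 (limma adjusted p = 0.0865). Its call was also lost without any 1 mouse, without the filter and in the fit of the 8 thalamus libraries alone (adjusted p up to 0.135). Cdc45, which joins the helicase at the origin, ran the other way, at 2.23, 1.85, 3.20 and 2.18 FPKM in positive libraries, against 0.954, 0.557, 0.153 and 0.461 FPKM in negative libraries. Its log2 fold change was 1.15 ± 0.44 (SE, limma adjusted p = 0.0704), and it was called only in some alternatives, such as a fit of the 8 thalamus libraries alone. Exons of Cdc45 overlap Ufd1 on the other strand, and Ufd1 had a log2 fold change of 0.50 (limma adjusted p = 0.0555).

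Of the mitotic cyclins and kinases, Ccnb2 (chr9:70407692-70421547, minus strand), a B cyclin, stood at 0.828, 1.32, 0.993 and 1.15 FPKM in thalamus positive libraries, against 1.71, 6.48, 3.60 and 1.73 FPKM in negative libraries. The groups did not overlap, mouse 2 was the highest, and the log2 fold change was -0.95 ± 0.28 (SE, limma adjusted p = 0.0231), or -0.65 without that library. The call of Ccnb2 was lost without the positive library of mouse 1 or 3 or the negative library of mouse 3 (adjusted p = 0.0548 to 0.0605). It was also lost without mouse 2 or 3 and in the fit of the 8 thalamus libraries alone (up to 0.149). Aurkb (chr11:69045647-69051664, plus strand), the kinase of the chromosomal passenger complex, stood at 1.25, 0.545, 0.823 and 1.39 FPKM in positive libraries, against 1.88, 12.0, 2.88 and 8.18 FPKM in negative libraries. Its groups did not overlap, mice 2 and 4 were the highest, and the log2 fold change was -1.61 ± 0.44 (SE, limma adjusted p = 0.0156), or -1.25 without the negative library of mouse 2. The call of Aurkb was lost without mouse 2 or mouse 4 (adjusted p up to 0.134). Ccnb1, the other B cyclin, overlapped at 1.12, 1.44, 0.795 and 1.03 FPKM in positive libraries, against 1.07, 6.32, 1.79 and 2.11 FPKM in negative libraries, with a limma adjusted p of 0.1.

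Among chromosome and spindle genes, Cenpf stood at 1.03, 0.602, 0.599 and 0.708 FPKM in thalamus positive libraries, against 3.67, 9.89, 3.80 and 4.02 FPKM in negative libraries. All positive values were near or below 1 FPKM and all negative values above 3 FPKM, and the log2 fold change of -1.78 ± 0.24 (SE, limma adjusted p = 0.000127) was called in all 18 alternative settings, at -1.48 without the negative library of mouse 2. Kif11 stood at 0.859, 0.705, 0.816 and 1.51 FPKM in positive libraries, against 3.01, 6.21, 1.92 and 2.25 FPKM in negative libraries. Again there was no overlap, and the log2 fold change was -1.06 ± 0.26 (SE, limma adjusted p = 0.00899), or -0.79 without the negative library of mouse 2. Top2a (chr11:98992943-99024189, minus strand) stood at 2.56, 4.85, 3.71 and 4.22 FPKM in positive libraries, against 17.3, 44, 5.94 and 8.94 FPKM in negative libraries. It did not overlap, mice 1 and 2 were the highest, and the log2 fold change was -1.70 ± 0.45 (SE, limma adjusted p = 0.0135), or -1.18 without the negative library of mouse 2. Without mouse 1 in every group the calls of Top2a (adjusted p = 0.0934) and Kif11 (adjusted p = 0.0502) were lost.

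Mki67 did not separate the thalamus groups. It was at 0.939, 1.89, 1.36 and 1.47 FPKM in positive libraries, against 4.12, 23.5, 0.591 and 4.00 FPKM in negative libraries, where mouse 3 lay below all positive libraries and mouse 2 far above. The log2 fold change was -1.23 ± 0.55 (SE, limma adjusted p = 0.112), and -0.53 without the negative library of mouse 2. Tpx2 stood at 1.12, 1.32, 1.04 and 0.929 FPKM in positive libraries, against 1.67, 3.12, 2.88 and 3.00 FPKM in negative libraries, with no overlap and a log2 fold change of -0.78 ± 0.40 (SE, limma adjusted p = 0.166). Cdk6 and the kinetochore motor gene Cenpe did not overlap either, at -1.17 (limma adjusted p = 0.141) and -0.96 (limma adjusted p = 0.0858) on the log2 scale, and without the negative library of mouse 2 at -0.71 for Cdk6 and -0.43 for Cenpe. A fit of the 8 thalamus libraries alone called 5 genes lower, Ccnd2, Cdk4, Kif11, Cenpf and Tpx2, against 10.3% of features called lower in it. The strip plots show how much of the thalamus negative spread comes from the library of mouse 2.

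**Figure D4:**
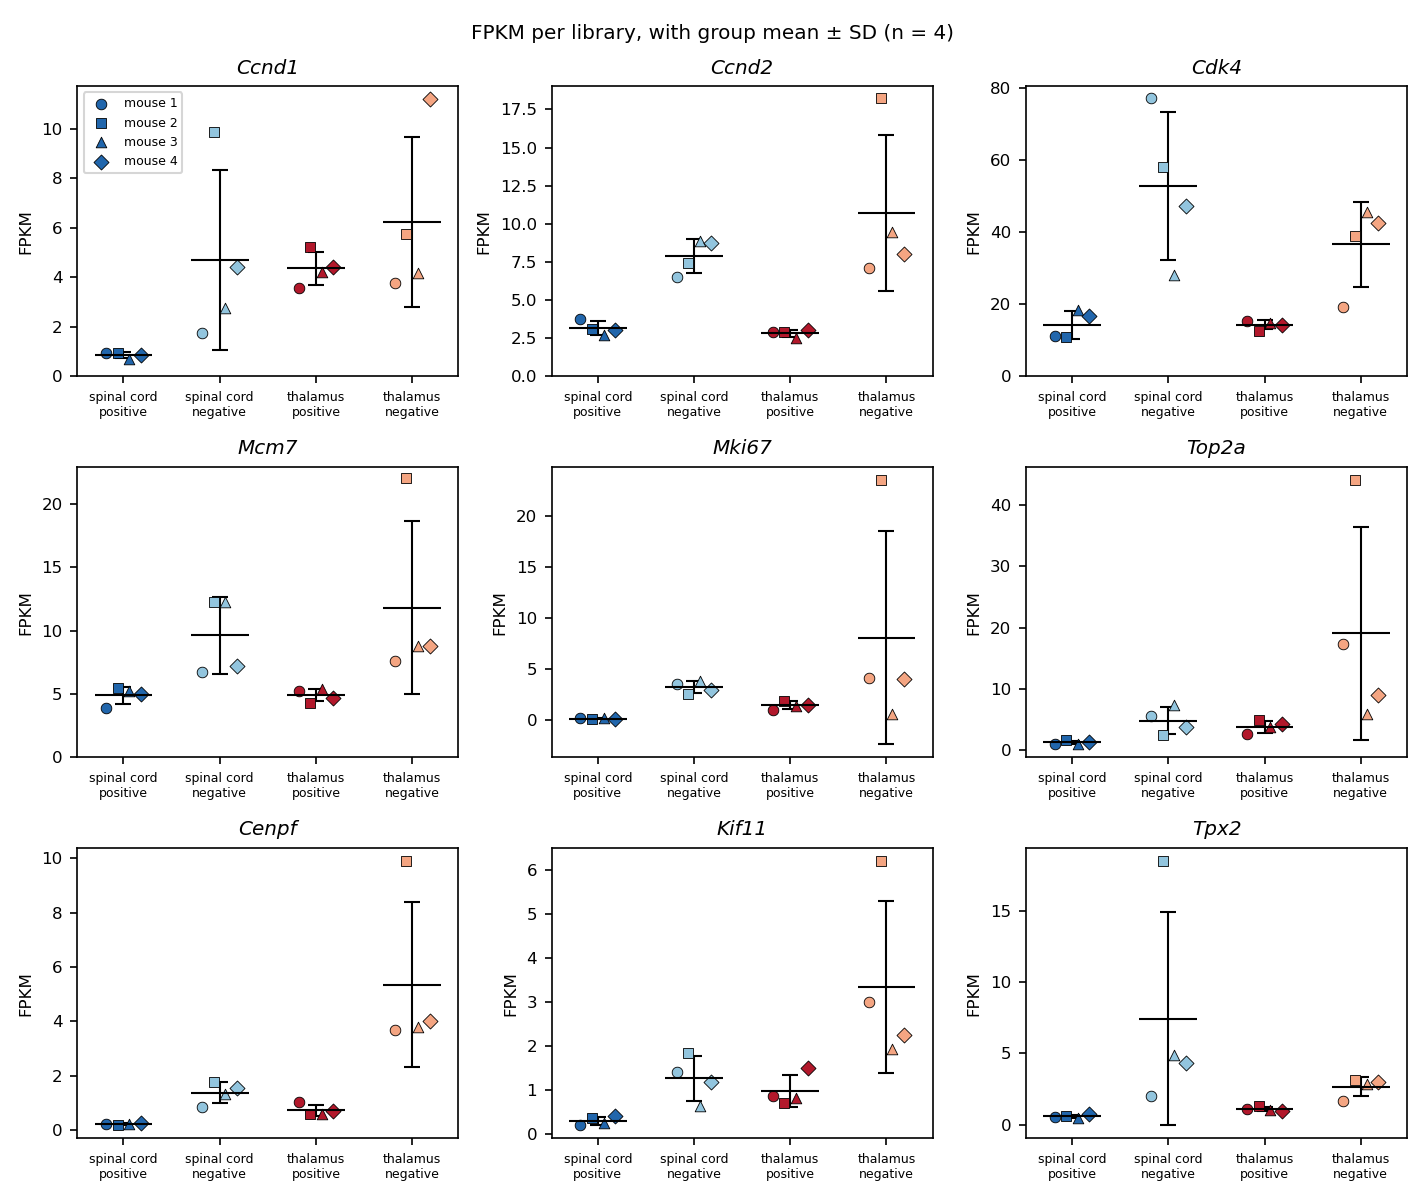
FPKM in each of the 16 libraries for 9 genes, with 1 symbol per mouse and the group mean ± SD (n = 4). Spinal cord positive libraries sit at the bottom for Ccnd1, Mki67, Cenpf, Kif11 and Tpx2, Ccnd1 is higher in all 4 thalamus positive libraries (3.56 to 5.22 FPKM), and the square of mouse 2 is the top thalamus negative value for Ccnd2, Mcm7, Mki67, Top2a, Cenpf, Kif11 and Tpx2.

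Between the spinal cord and the thalamus, 1 gene was called among the positive libraries, the D cyclin gene Ccnd1. It was at 0.935, 0.950, 0.715 and 0.854 FPKM in the positive spinal cord libraries, against 3.56, 5.22, 4.23 and 4.42 FPKM in thalamus positive libraries, with no overlap and a wide gap. Its log2 fold change was -1.52 ± 0.37 (SE, limma adjusted p = 0.0225), the 1 call of the 30 genes, with 0 called higher and 4 lower and 0 higher at an unadjusted p under 0.05 in limma, against 1.88% of all features called lower and 4.22% higher (6.1% in either direction). The call of Ccnd1 was lost without any 1 of the 8 positive libraries but that of thalamus mouse 1, with adjusted p of 0.0544 to 0.0680, while the log2 fold change in a fit of the positive libraries alone was -1.52 ± 0.11 (SE, limma adjusted p = 0.000135). Leaving out the whole of mouse 2, 3 or 4 also ended that call, with adjusted p up to 0.178. Ccnd2 and Cdk4 overlapped between the regions, with log2 fold changes of 0.11 (limma adjusted p = 0.888) and -0.03 (limma adjusted p = 0.984). LTO1, whose exons overlap those of Ccnd1 on the other strand, had a log2 fold change of 0.14 (limma adjusted p = 0.922).

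The fit of 16 libraries uses 1 common spread per gene, while the positive groups alone had the smaller SDs given above. Of the 30 genes, 13 were lower in spinal cord positive than in thalamus positive libraries without overlap, and Cdk6 was higher without overlap, where 14.1% of all features were lower and 15.5% higher without overlap. A fit of the 8 positive libraries alone called 13 genes lower and Cdk6 higher, against 12.1% of all features called lower and 25.9% in either direction in that fit. Mki67 was at 0.0728 to 0.152 FPKM in spinal cord positive and 0.939 to 1.89 FPKM in thalamus positive libraries, and in that fit its log2 fold change was -1.10 ± 0.12 (SE, limma adjusted p = 0.000805). Top2a was at 1.06 to 1.64 FPKM in spinal cord positive and 2.56 to 4.85 FPKM in thalamus positive libraries, at -1.08 ± 0.17 (SE, limma adjusted p = 0.00348). Bub1 was at 0 to 0.0374 FPKM in spinal cord positive and 0.277 to 2.90 FPKM in thalamus positive libraries, at -1.17 ± 0.30 (SE, limma adjusted p = 0.0248). It had passed the filter only through thalamus libraries, most of them positive. Cdk6 was at 1.45 to 2.2 FPKM in spinal cord positive and 0.610 to 0.826 FPKM in thalamus positive libraries, at 0.67 ± 0.10 (SE, limma adjusted p = 0.00323). The other genes that this fit called lower were Ccne2, Ccna2, Aurkb, Ube2c, Cenpe, Cenpf, Kif11, Nusap1 and Tpx2. In the same fit Mcm7 (-0.01), Mcm4 (-0.13) and Pcna (0.29) were not called. In the fit of all 16 libraries, 1 of 8 precursor markers and 1 of 10 oligodendrocyte markers were called higher in spinal cord positive libraries, and 1 ependymal, 1 endothelial and 1 neuron marker lower. Of 10 astrocyte markers 4 were called higher and 1 lower there, with a median log2 fold change of 0.59.

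**Figure D5:**
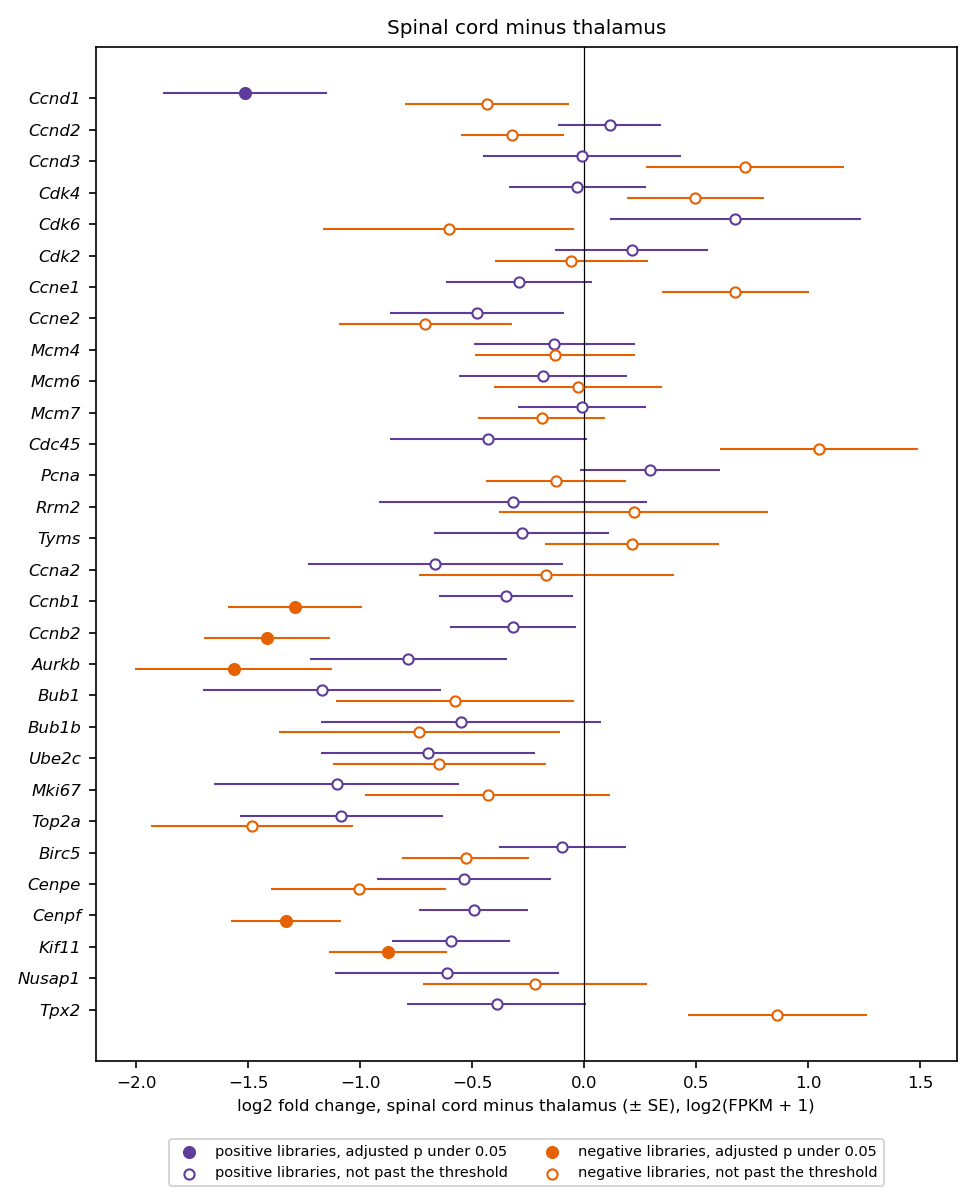
Log2 fold change of FPKM + 1 with its SE, spinal cord minus thalamus, for the 30 tested genes in positive (purple) and negative (orange) libraries, with filled points for adjusted p under 0.05 in the fit of all 16 libraries. Ccnd1 is the 1 filled purple point, and Ccnb1, Ccnb2, Aurkb, Cenpf and Kif11 are the 5 filled orange points, all left of 0.

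Among the negative libraries, those of the spinal cord held less RNA of the mitotic genes Ccnb1, Ccnb2 and Aurkb and of Cenpf and Kif11 than those of the thalamus. These 5 of the 30 genes were called lower and 0 higher, against 4.54% of all features called lower and 5.27% higher (9.81% in either direction). Ccnb1 and Ccnb2 had passed the filter only through the thalamus negative group, and leaving out Ccnb1, Ccnb2 and Cenpe gave 3 of 27 (11.1%). Leaving out the library of mouse 2 in the thalamus negative group left 3 of the 30 called, Ccnb1, Ccnb2 and Cenpf, and the median log2 fold change over the 30 genes was 0.04, against -0.38 with it. At an unadjusted p under 0.05 limma gave 7 lower and 2 higher. The groups did not overlap for 4 of the 5, all but Aurkb, where 4.01% of all features were lower and 5.05% higher without overlap. In the same comparison 5 of 8 precursor markers, 10 of 10 oligodendrocyte markers and 6 of 10 endothelial markers were called higher in the spinal cord, and 8 of 10 ependymal markers and 1 endothelial marker lower. Of 10 astrocyte markers 1 was called higher and 1 lower. A fit of the 8 negative libraries alone called 0 of the 30 genes, with 6 lower at an unadjusted p under 0.05 in limma, against 0.845% of features called lower and 2.16% called in either direction in it.

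Ccnb1 (chr13:100778650-100786570, minus strand) stood at 0.442, 0.225, 0.360 and 0.533 FPKM in spinal cord negative libraries, against 1.07, 6.32, 1.79 and 2.11 FPKM in thalamus negative libraries. All 4 spinal cord values were under 1 FPKM, and the log2 fold change was -1.29 ± 0.30 (SE, limma adjusted p = 0.0125), or -0.92 without the thalamus library of mouse 2 (limma adjusted p = 0.00873). Ccnb2 stood at 0.379, 0.482, 0.239 and 0.982 FPKM in spinal cord negative libraries, against 1.71, 6.48, 3.60 and 1.73 FPKM in thalamus negative libraries. It did not overlap, with a log2 fold change of -1.42 ± 0.28 (SE, limma adjusted p = 0.00448), or -1.11 without that library. Cenpf gave -1.33 ± 0.24 (SE, limma adjusted p = 0.00254), or -1.04 without that library. The call of Ccnb1 was lost without mouse 3, without mouse 4 and in the fit of the 8 negative libraries alone (limma adjusted p up to 0.165). That of Ccnb2 was lost without mouse 3 and in the same fit (up to 0.120). Aurkb stood at 1.16, 0.884, 0.0862 and 2.91 FPKM in spinal cord negative libraries, against 1.88, 12.0, 2.88 and 8.18 FPKM in thalamus negative libraries, where mouse 4 of the spinal cord overlapped. It gave -1.57 ± 0.44 (SE, limma adjusted p = 0.0358) and Kif11 gave -0.88 ± 0.26 (SE, limma adjusted p = 0.0481). The call of Aurkb was lost without the thalamus library of mouse 2 or 4 or the spinal cord library of mouse 1, 2 or 3 (adjusted p = 0.0577 to 0.0962). The call of Kif11 was lost without the thalamus library of mouse 1 or 2 or the spinal cord library of mouse 1, 3 or 4 (adjusted p = 0.0626 to 0.120). Leaving out whole mice ended the call of Aurkb without mouse 2, 3 or 4 and that of Kif11 without any 1 mouse. Mki67, Ccnd1, Ccnd2 and Cdk4 were not called between the negative groups.

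The reporter effect itself, positive minus negative, was compared between the regions by an interaction contrast. It called 0 of the 30 genes, against 2.56% of all features (1.13% higher and 1.43% lower), and 0 in each of the alternative settings. At an unadjusted p under 0.05 limma gave 3 higher, Ccnb1, Ccnb2 and Cenpf, and 2 lower, Cdc45 and Tpx2. The difference of the effects, spinal cord minus thalamus, was -1.25 ± 0.56 (SE, limma adjusted p = 0.320) for Tpx2, 1.10 ± 0.40 (SE, limma adjusted p = 0.195) for Ccnb2 and -1.08 ± 0.52 (SE, limma adjusted p = 0.353) for Ccnd1. So the calls of Ccnd1, Mki67 and Tpx2 in the spinal cord and of Mcm7, Pcna, Ccnb2, Aurkb and Top2a in the thalamus were not shown to differ between the regions.

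The 8 genes under the filter were Cdc6, Mcm2, Mcm3, Mcm5, Cdk1, Aurka, Plk1 and Cdc20, most of them below 1 FPKM in nearly every library. Cdk1, the kinase of mitotic entry, stood at 0.485, 0, 0 and 0 FPKM in spinal cord positive and 1.68, 0.0830, 0.520 and 0.0762 FPKM in the negative spinal cord libraries, and at 0.449, 0.532, 0.784 and 0.571 FPKM in thalamus positive and 0.0745, 22.8, 0.167 and 14.6 FPKM in thalamus negative libraries. It was listed at 0 in 3 of 4 spinal cord positive libraries, and its high values were those of mice 2 and 4 in the thalamus negative group. Cdc20, an activator of the anaphase promoting complex, was at 0.116 to 0.479 FPKM in thalamus positive and 0.528 to 1.78 FPKM in thalamus negative libraries, with no overlap. With no filter its log2 fold change there was -0.63 ± 0.17 (SE, limma adjusted p = 0.0260), the 1 call among the 8 genes in any of the 5 comparisons. Aurka, the kinase that Tpx2 activates, was at 0.120 to 0.325 FPKM in spinal cord positive and 0.378 to 0.804 FPKM in thalamus positive libraries, with no overlap and no call. The helicase genes Mcm2, Mcm3 and Mcm5 ranged from 0 to 1.95 FPKM, Plk1 from 0 to 3.04 FPKM and Cdc6, which loads the helicase, from 0 to 1.08 FPKM.

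The tested genes not yet described were not called in any of the 5 comparisons. Rrm2 and Tyms, enzymes of nucleotide supply, averaged 2.44 ± 1.39 and 3.95 ± 0.559 FPKM in spinal cord positive, 7.48 ± 9.29 and 6.13 ± 2.14 FPKM in the negative spinal cord group, 3.12 ± 0.845 and 4.99 ± 0.341 FPKM in thalamus positive and 5.14 ± 4.27 and 6.26 ± 5.07 FPKM in thalamus negative libraries (SD, n = 4). Cyclin A2, encoded by Ccna2, averaged 2.37 ± 0.379 FPKM in spinal cord positive, 5.94 ± 2.40 in spinal cord negative, 4.44 ± 1.33 in thalamus positive and 10.8 ± 14.1 in thalamus negative libraries (SD, n = 4), the last with 31.8 FPKM in mouse 2. Exons of Ccna2 overlap Exosc9 on the other strand, and Exosc9 was called higher in positive libraries of the spinal cord (log2 fold change 0.73, limma adjusted p = 0.0442) and of the thalamus (0.76, limma adjusted p = 0.0318). The E cyclin Ccne2 averaged 1.80 ± 0.232 FPKM in spinal cord positive, 1.76 ± 0.468 in spinal cord negative, 2.93 ± 0.656 in thalamus positive and 4.36 ± 3.26 in thalamus negative libraries (SD, n = 4). Mcm4, a further helicase subunit, averaged 1.94 ± 0.477 FPKM in spinal cord positive, 3.58 ± 1.93 in spinal cord negative, 2.21 ± 0.380 in thalamus positive and 4.24 ± 3.23 in thalamus negative libraries (SD, n = 4). Birc5, the survivin gene of the chromosomal passenger complex, ran at 1.29 to 1.93 FPKM in spinal cord positive and 0.399 to 1.67 FPKM in the negative spinal cord libraries, and was the higher in positive libraries of all 4 mice there (log2 fold change 0.50, limma adjusted p = 0.245). Ube2c, the ubiquitin-conjugating enzyme of the anaphase promoting complex, had 20.6 FPKM in the thalamus negative library of mouse 2 and 1.64 to 10.1 FPKM in the others. The checkpoint kinase gene Bub1b and the spindle gene Nusap1 likewise peaked in that library, at 13.2 and 12.2 FPKM.

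The wider pathway was read in 5 further lists of 97 genes, of which 74 were tested. In the spinal cord 8 were called lower (10.8%) and 4 higher (5.41%) in positive libraries, against 10.5% and 9.04% of all features. In the thalamus 5 were called lower (6.76%) and 1 higher (1.35%), against 13.6% and 11.6%. These shares are near or under those of all features, so the genes named next are described singly. Among the CDK inhibitors, Cdkn1c, which holds cells out of the cycle, was lower in spinal cord positive libraries, at 0.140 ± 0.119 FPKM, against 6.27 ± 2.31 FPKM in negative libraries (SD, n = 4), with a log2 fold change of -2.62 ± 0.43 (SE, limma adjusted p = 0.000604). E2f8, a repressing member of the E2F family, was also lower there, at 0.411 ± 0.172 FPKM, against 7.77 ± 3.68 FPKM in negative libraries (SD, n = 4), with -2.54 ± 0.33 (SE, limma adjusted p = 8.22e-05). The pocket protein gene Rb1, a brake on E2F, was higher at 128 ± 9.17 FPKM in positive libraries, against 87.3 ± 8.60 FPKM in negative libraries (SD, n = 4), with 0.54 ± 0.15 (SE, limma adjusted p = 0.0191), a call lost without the positive library of mouse 2 or the negative library of mouse 4 (adjusted p up to 0.0615). Of the further replication genes, the clamp loader genes Rfc4 (-1.37, limma adjusted p = 0.0118) and Rfc5 (-0.46, limma adjusted p = 0.0413) were lower and the origin recognition gene Orc5 (0.92, limma adjusted p = 0.0244) higher. The calls of Rfc5 (without any 1 library but the negative one of mouse 2, adjusted p up to 0.121) and Orc5 (without the positive library of mouse 1, 2 or 4 or the negative one of mouse 4, up to 0.0733) were lost. That of Rfc4 was lost without the whole of mouse 2 or mouse 3 (up to 0.0846).

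Of the further mitosis genes in the spinal cord, Anln, a scaffold of the cytokinetic ring that is also known from myelin, was at 0.475 ± 0.171 FPKM in positive libraries, against 5.82 ± 0.949 FPKM in negative libraries (SD, n = 4), with a log2 fold change of -2.21 ± 0.23 (SE, limma adjusted p = 8.00e-06). Ncapg, a condensin subunit, was at 2.91 ± 0.257 FPKM in positive libraries, against 15.2 ± 2.55 FPKM in negative libraries (SD, n = 4), with -2.04 ± 0.36 (SE, limma adjusted p = 0.000933). The spindle gene Ckap2 was lower (-1.63, limma adjusted p = 0.0313) and the securin gene Pttg1, an inhibitor of chromosome separation, higher (1.18, limma adjusted p = 0.0362). The call of Ckap2 was lost without any 1 library but the negative ones of mice 1 and 2 (adjusted p up to 0.0871), and that of Pttg1 without any 1 but the negative one of mouse 1 (up to 0.0964). Racgap1, a central spindle protein of cytokinesis, was higher in positive libraries of both regions and far above the other mitosis genes. It averaged 318 ± 12.7 FPKM in spinal cord positive and 157 ± 40.4 FPKM in the negative spinal cord libraries, and 309 ± 55.9 FPKM in thalamus positive and 140 ± 73.0 FPKM in thalamus negative libraries (SD, n = 4). The log2 fold change of Racgap1 was 1.05 (limma adjusted p = 0.0180) in the spinal cord, lost without the negative library of mouse 3 (0.0517), and 1.25 (limma adjusted p = 0.00554) in the thalamus. Leaving out the whole of mouse 2, 3 or 4 ended its spinal cord call (adjusted p up to 0.132), and mouse 3 its thalamus call (0.0545).

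In the thalamus Gins4, a helicase subunit, was lower at -1.11 (limma adjusted p = 0.00630), Rfc4 at -1.19 (limma adjusted p = 0.0210), the kinetochore gene Nuf2 at -1.03 (limma adjusted p = 0.00664), the kinase subunit gene Cks2 at -1.39 (limma adjusted p = 0.0216) and Anln at -0.73 (limma adjusted p = 0.0297) on the log2 scale. The calls of Rfc4 (without the positive library of mouse 3 or the negative one of mouse 1, adjusted p up to 0.0732), Cks2 (without the positive library of mouse 2 or the negative one of mouse 3 or 4, up to 0.0591) and Anln (without the positive library of mouse 1, 3 or 4 or the negative one of mouse 2 or 4, up to 0.0898) were lost. Between the negative groups 3 were called higher (4.05%) and 2 lower (2.70%), against 5.27% and 4.54% of all features. The spinal cord negative libraries had more E2f8 (1.64, limma adjusted p = 0.00498), Anln (1.25, limma adjusted p = 0.00226) and Cdkn1c (1.48, limma adjusted p = 0.0441), and less of the transcripts of Nuf2 (-1.70, limma adjusted p = 0.000326) and of the pocket protein gene Rbl1 (-1.30, limma adjusted p = 0.00520). The Cdkn1c call was lost without the thalamus negative library of mouse 2 or 3 or the spinal cord negative library of mouse 1, 3 or 4 (adjusted p up to 0.113). Between the positive groups 0 of the 74 were called by limma, with 3 higher and 3 lower at an unadjusted p under 0.05. Cdkn1a, a CDK inhibitor of the stress response, came nearest and was chosen after its values were seen. It was at 67.6, 126, 146 and 72.1 FPKM in the positive spinal cord libraries, against 11.0, 28.2, 28.3 and 11.8 FPKM in thalamus positive libraries, with no overlap and a log2 fold change of 2.37 ± 0.67 (SE, limma adjusted p = 0.0509). The interaction contrast called 2 of the 74 (2.70%, against 2.56% of all features), E2f8 (-1.97, limma adjusted p = 0.0394, or 0.0795 with the mouse as replicate block) and Anln (-1.48, limma adjusted p = 0.0234), and leaving out single libraries ended the call of E2f8 in 12 of 16 cases and that of Anln in 6.

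Some values could hold reads of other genes. Exons of Ccnd1, Ccnd2, Ccnd3, Cdk4, Mcm7, Cdc45, Ccna2, Nusap1 and Ube2c, among others, overlap a gene on the opposite strand, and Mcm7 also holds the microRNA genes Mir25 and Mir93. The annotation names pseudogenes of Pcna, Ccnb1, Ccnb2, Tyms and Ccnd3, and the sources used here do not say how shared reads were counted. The authors' deposited table of positive against negative comparisons lists 444 rows with adjusted p up to 0.00976, and 0 of the 38 genes and 0 of the 97 further genes are among them.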

How the data were processed

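RNA of sorted cells was isolated with a Qiagen RNeasy plus micro kit and made into libraries with NuGEN RNA-Seq V2, per the labels' protocols. Without role or order, the submitters' processing notes list Cufflinks, Cuffnorm, HTSeq 0.6.1p1, DESeq2, TopHat2 2.0.11, Bowtie2 2.2.3, FastQC and the build GRCm38. The authors deposited FPKM values for 39171 features in 16 libraries. Their deposited comparison table holds, per the file headers, FPKM group means, log2 fold changes, p-values with adjusted p-values, a mean signal and a test score, none of which was used as a measurement here.

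Models were fitted to log2(FPKM + 1) by limma 3.58.1 under R 4.3.3, with a trended prior and 1 coefficient per group, over the 16340 features at 1 FPKM or more in at least 4 libraries. The fit was tested on simulated data. Depth is unknown, so no counting interval is given. Size factors by median of ratios ran from 0.986 to 1.07, and 0 pairs of libraries were identical. Per the labels, libraries that share a mouse number are from 1 animal. Deviations from the group means correlated at 0.0358 on average over the 24 same-mouse pairs (-0.0135 to 0.0919) and at -0.0119 over the 72 others. Alternatives were pseudocounts of 0.1 and 0.5, no filter, 5 FPKM, median-of-ratios rescaling, the mouse as a replicate block, fits of only the groups compared, and leaving out each library or mouse. Values in every library were given for genes called in a comparison and for Mki67, Top2a, Cdk1, Ccnb1, Pcna and Ccnd1, and up to 4 called genes per further list and comparison were named, by size of change, with the values of a gene so named given in other comparisons that called it (Racgap1 in the spinal cord). The 38 genes, the lists and the tests were chosen with earlier results of these data known. Fits of fewer libraries tested the same 16340 features.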

Additional observations from a re-analysis of the deposited data

Results flagged for a closer look

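Of 152 sets of 4 values (38 genes in 4 groups), 26 had 1 value far from the other 3, by Dixon's test at 95% on FPKM values. Its chance rate of about 1 in 20 is for independent sets of normally distributed values. These sets share libraries and some hold values at 0, so that rate is no measure here. Of the 26, 13 lay in the thalamus negative library of mouse 2. These were Cdc6 at 1.08 FPKM (nearest value 0.123), Mcm4 at 9.03 (3.21), Mcm5 at 1.95 (0.272), Mcm6 at 5.73 (1.22), Mcm7 at 22.0 (8.81), Ccna2 at 31.8 (5.83), Plk1 at 3.04 (0.301), Bub1 at 8.66 (0.849), Bub1b at 13.2 (1.97), Mki67 at 23.5 (4.12), Cenpe at 9.43 (1.58), Cenpf at 9.89 (4.02) and Nusap1 at 12.2 (2.60). In this library genes of licensing, of the helicase and of mitosis stood high together, and what set it apart was not tested. In the thalamus negative library of mouse 1, Tpx2 stood low at 1.67 FPKM (nearest 2.88).

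In spinal cord negative libraries, Ccnd3 stood at 10.9 FPKM in mouse 4 (3.84), Ccne1 at 2.95 in mouse 2 (0.923), Cdc6 at 0.00870 in mouse 4 with the other three at 0, Cdc45 at 10.2 in mouse 2 (1.24) and Rrm2 at 21.4 in mouse 1 (3.70). In spinal cord positive libraries, Ccne2 stood at 2.14 FPKM in mouse 1 (1.71), Cdk1 at 0.485 in mouse 1 with the other three at 0, Bub1b at 1.37 in mouse 4 (0.107) and Nusap1 at 1.65 in mouse 3 (1.07). In thalamus positive libraries, Ccne1 stood at 2.85 FPKM in mouse 4 (1.09), Rrm2 at 4.38 in mouse 1 (2.85) and Cenpe at 1.06 in mouse 2 (0.736).

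The reporter effect differed between the regions for E2f8 and Anln among the 74 further genes tested. For E2f8 the difference, spinal cord minus thalamus, was -1.97 ± 0.47 (SE, limma adjusted p = 0.0394), and the adjusted p was 0.0795 with the mouse as replicate block. Its call was lost without 12 of the 16 libraries in turn (adjusted p up to 0.0901), the 4 exceptions being the thalamus negative libraries of mice 1 and 2 and the spinal cord negative libraries of mice 2 and 4. For Anln the difference was -1.48 ± 0.32 (SE, limma adjusted p = 0.0234), lost without the positive library of mouse 2, 3 or 4 of either region (adjusted p up to 0.0647). Exons of E2f8 overlap Gm2788 on the other strand.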

How the results depend on the processing

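No result changed its direction while called. Of 22 calls of the 38 genes over the 5 comparisons, 4 held in every alternative that tested them (Cdk4 and Tpx2 in the spinal cord, Ccnd2 and Cenpf in the thalamus, of which Tpx2 and Cenpf were not tested at 5 FPKM) and 18 were lost in at least 1. Losses given above for single libraries do not cover every fit without a whole mouse, and such fits ended further calls. With a minimum of 5 FPKM, which leaves 9 of the genes, the genes called numbered 3 in the spinal cord (7 as reported), 5 in the thalamus (9) and 0 between the negative groups (5, with 1 lower at an unadjusted p under 0.05 in limma), and features called in the interaction 271 (418). In fits of only the groups compared, the genes called numbered 11 in the spinal cord, 14 between the positive groups (1) and 0 between the negative groups, and features called 4227 between the positive groups (996) and 353 between the negative groups (1603). That fit cannot be made for the interaction. With a pseudocount of 0.1, 3 genes were called between the positive groups and 3 between the negative groups, and with no filter 3 between the negative groups. Without Ccnb1, Ccnb2 and Cenpe, a choice made after seeing the data, 3 were called between the negative groups. Leaving out 1 library or mouse, the genes called ranged from 3 to 8 in the spinal cord, 5 to 10 in the thalamus, 0 to 1 between the positive groups, 2 to 6 between the negative groups and were 0 in the interaction, and features called from 1861 to 3006, 2249 to 4855, 368 to 838, 976 to 1808 and 129 to 659. With the mouse as replicate block, 8, 9, 1, 5 and 0 genes and 3205, 4107, 981, 1541 and 343 features were called in that order of comparisons. Beside Mcm7 in the spinal cord and E2f8 in the interaction, the block changed no call of a gene named in the text. Of the values of single genes under alternatives, 3160 kept their side of the threshold, 45 moved past it and 227 no longer passed it. FPKM values give no depth, so that genes under 1 FPKM may rest on few fragments.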
